A study of Mus musculus with 12 samples.

Results

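Adipokines are proteins that fat tissue secretes into the blood. The 8 genes described here encode adipokines other than leptin: Adipoq (adiponectin), Retn (resistin), Rbp4 (retinol binding protein 4), Nampt (the NAD-making enzyme also called visfatin), Rarres2 (chemerin), Retnla (resistin-like alpha), Apln (apelin) and Agt (angiotensinogen). The members are the probe sets whose platform annotation names 1 of these genes and no other gene, which gave 12 of the 45101 probe sets of the array, and 8 of the 18194 genes they stand for. Rarres2 and Nampt have 3 probe sets each, and each of the other 6 genes has 1. No probe set lists a member among several genes.

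The RNA came from abdominal fat pads of female mice on the C57BL/6 background, pooled before hybridisation to Affymetrix arrays. There were 4 groups of 3 pools: p47phox null on a high fat diet, wild type on the high fat diet, p47phox null on casein and wild type on casein. The null mice lack p47phox, the product of Ncf1, an organizing subunit of the NADPH oxidase that makes superoxide in phagocytes and other cells. Both diets began at postnatal day 28 and ran for 13 weeks, so all groups share sex, background, age and length of feeding. The labels name neither the allele nor the composition of the diets, and they do not say how many mice made a pool or whether the wild type mice were littermates of the null mice. A p-value here therefore measures the spread between pools only.

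Values are log2 values that the authors centred on the median of each probe set over the 12 arrays, so 0 is the middle pool and a difference of 1 is a doubling. The level of one gene cannot be set against that of another, and presence or absence of a transcript cannot be read. Where a gene has several probe sets, their mean stands for it. Differences were tested in 1 limma fit to all genes, with Benjamini-Hochberg adjustment over the 18194 genes and a threshold of 0.05, and errors after ± are standard errors of that fit unless called SD.

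Adiponectin is made almost only by adipocytes and raises insulin sensitivity through the receptors AdipoR1 and AdipoR2, while T-cadherin holds its large complexes on the vessel wall. Chemerin is secreted as a precursor, is cut by proteases and draws macrophages and dendritic cells through the receptor CMKLR1. In mice resistin comes from adipocytes, whereas its relative resistin-like alpha is a classical product of alternatively activated macrophages and is also made in fat. The remaining members carry retinol (RBP4), rebuild NAD (NAMPT), act on vessels and heart through their own receptor (apelin) or give rise to angiotensin (angiotensinogen).

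The Ncf1 probe sets followed the genotype labels: for 2 of its 3 probe sets each of the 6 null pools lay below each of the 6 wild type pools, the wider gap running over -0.54 to -0.33 in null pools and 0.33 to 1.71 in wild type pools. The pools differed in tissue. The median of 17 liver markers reached 4.58 in wild type casein pool 3, and the median of 18 skeletal muscle markers reached 3.67 in null high fat pool 1, 4.58 in wild type high fat pool 2 and 2.77 in wild type casein pool 1. The median of 20 markers of ovary, oviduct and uterus was 0.14, 0.50 and 0.78 in null high fat pools, against -0.59, -0.88 and -0.83 in wild type high fat pools. Of the mature adipocyte markers listed, 17 were measured, and their median in a pool ran over -0.51 to 0.39 across the 12 pools; Plin1 is not analysed here.

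On the high fat diet Rarres2 (chemerin) passed the test between the genotypes, being lower in null pools. None of the other 7 members passed. That is 1 of 8 members, where 2.71% of all genes passed in this direction and 5.92% in either. Retnla had a larger difference (-1.14 against -0.62 for Rarres2) and lay just above the threshold (limma, adjusted p = 0.052 against 0.0405). In 3 members, Rarres2, Retnla and Retn, every null pool lay below every wild type pool, where 17.3% of all genes were separated in that direction. Across the members 6 differences were below 0 and 2 above, with a median of -0.26, while the median over all genes was -0.03. Averaged over both diets, Retnla was the member that passed, being lower in null pools, where 3.42% of all genes passed in that direction and 7.52% in either. No member passed between the genotypes on casein or between the diets, where 0% of all genes passed in those 3 comparisons. The plot of every pool shows the 8 members side by side.

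**Figure D1:**
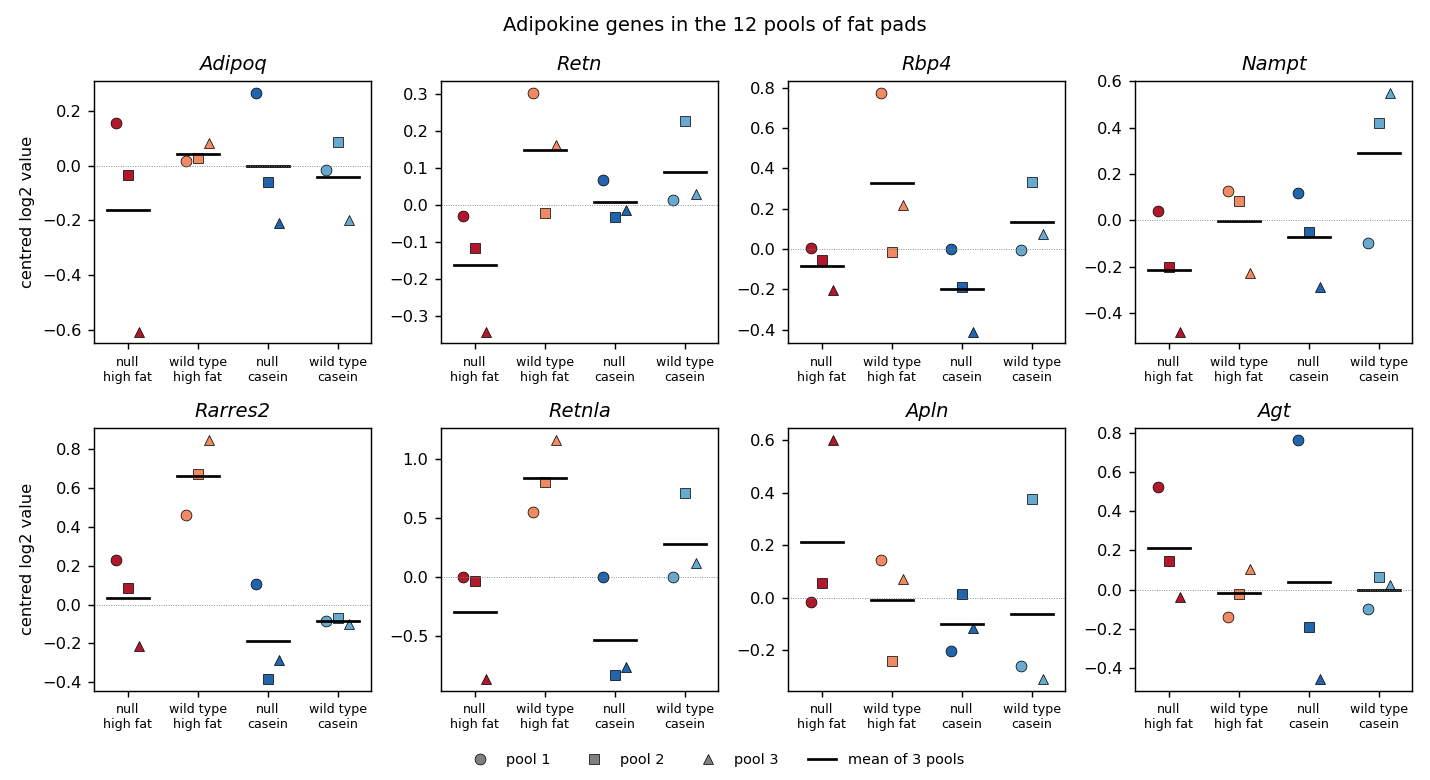
Centred log2 value (vertical axis) of each of the 8 adipokine genes in the 12 pools, with null high fat, wild type high fat, null casein and wild type casein from left to right, symbols for the pool number and a bar for the mean of 3 pools. Rarres2, Retnla and Retn have all 3 null high fat pools below all 3 wild type high fat pools, and in the other 5 genes these groups overlap.

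For chemerin the arrays read the RNA of Rarres2, not the protein. Rarres2 was 0.23, 0.086 and -0.21 in null high fat pools, against 0.46, 0.67 and 0.84 in wild type high fat pools. On casein it was 0.10, -0.38 and -0.28 in null pools, against -0.084, -0.069 and -0.10 in wild type pools. The wild type high fat pools thus stood above all other 9 pools, while null high fat pools overlapped null casein pools. On the high fat diet Rarres2 fell by 0.62 ± 0.15 on the log2 scale in null pools relative to wild type (limma, adjusted p = 0.0405), to 64.9% of the wild type value. The call ended when any 1 of 7 pools was left out, among them each of the 3 wild type high fat pools (adjusted p = 0.0594, 0.0933 and 0.127) and null high fat pools 2 and 3 (0.11 and 0.152). The other 2 pools were null casein 2 and 3 (0.053 and 0.0522). The call also ended when the values were quantile normalized again (0.0517) and without the 3 pools that held the most liver or muscle RNA (0.0822).

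On casein the difference between null and wild type pools in Rarres2 was -0.10 ± 0.15, with an adjusted p of 0.859 in the limma fit and overlapping pools. In wild type pools the high fat diet minus casein difference was 0.74 ± 0.15, and every high fat pool lay above every casein pool, as in 7.07% of all genes. This had an unadjusted p of 0.000473 and an adjusted p of 0.315 in limma, so it did not pass over all genes. In null pools the diet difference was 0.22 ± 0.15 (limma, adjusted p = 0.9996), with overlapping pools. The difference between these diet differences, null minus wild type, was -0.52 ± 0.21 with an unadjusted p of 0.0316 and an adjusted p of 0.79 in limma. These comparisons share pools: the 3 wild type high fat pools enter the genotype difference on the high fat diet, the diet difference in wild type pools and the interaction.

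The 3 Rarres2 probe sets did not behave alike. Probe set 1428538_s_at read 0.31, 0.19 and -0.49 in null high fat pools, against 0.68, 0.90 and 1.30 in wild type high fat pools. Probe set 1437902_s_at read 0.25, 0.18 and -0.21 in null high fat pools, against 0.68, 0.84 and 1.18 in wild type high fat pools. Probe set 1425091_at read 0.13, -0.11 and 0.060 in null high fat pools, against 0.010, 0.28 and 0.055 in wild type high fat pools, and here the groups overlapped. Over the 12 pools the first pair correlated with Pearson's r = 0.98, while each correlated with 1425091_at at 0.45 and 0.50. Tested one by one among all probe sets, 1428538_s_at fell by 0.96 ± 0.22 (limma, adjusted p = 0.0393) and 1437902_s_at by 0.83 ± 0.17 (adjusted p = 0.0269). The difference for 1425091_at was -0.088 ± 0.12 (limma, adjusted p = 0.727), so the mean of the 3 is smaller than either of the changes that passed. An s_at name marks a set whose probes can match several transcripts, and the annotation gives Rarres2 alone for all 3. Averaged over the diets the same pair of probe sets also fell, by 0.63 ± 0.16 (limma, adjusted p = 0.0392) and by 0.47 ± 0.12 (adjusted p = 0.0415), whereas the gene value did not pass (-0.36 ± 0.11, adjusted p = 0.0611).

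**Figure D2:**
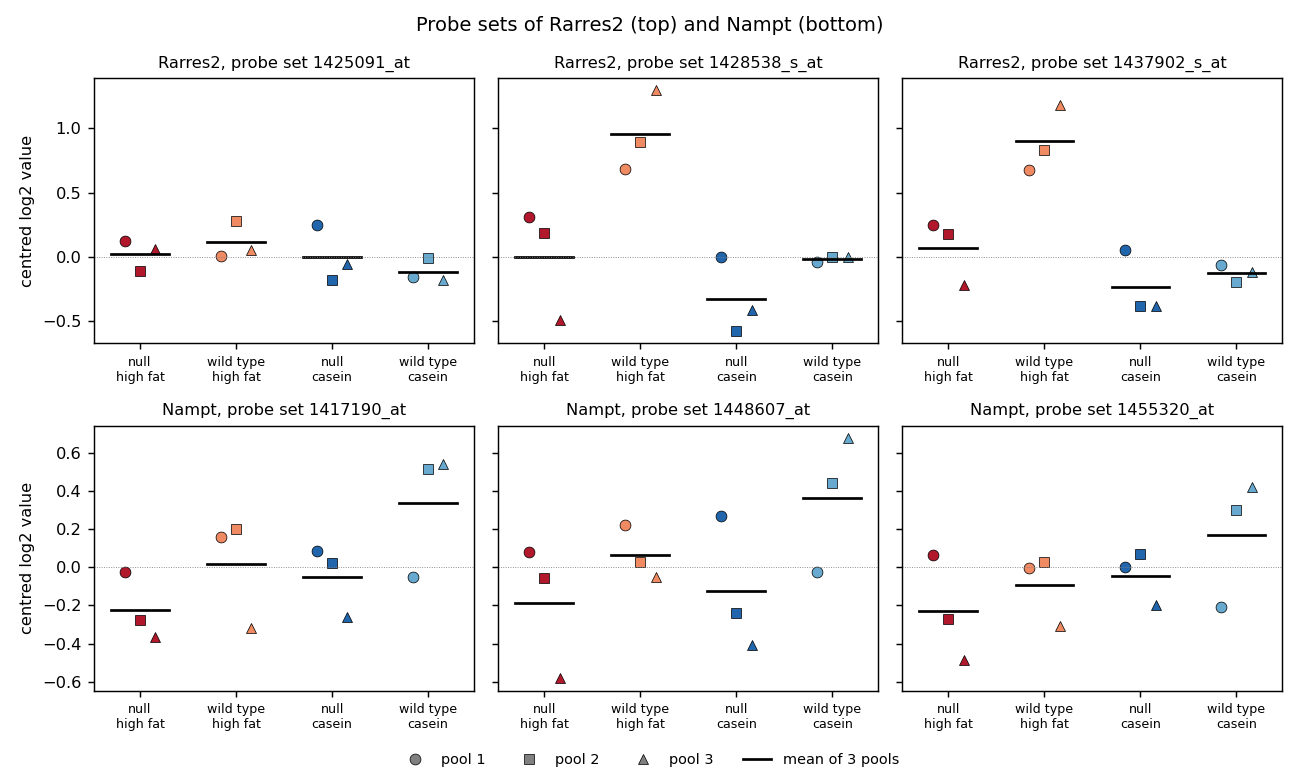
Centred log2 value (vertical axis) of the 3 probe sets of Rarres2 (top row) and the 3 of Nampt (bottom row) in the 12 pools, in the same group order, with a bar for the mean of 3 pools. Both s_at probe sets of Rarres2 have the wild type high fat pools highest, while 1425091_at shows overlapping groups, and the 3 Nampt probe sets run alike.

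The gene for the signalling receptor of chemerin fell as well. Cmklr1 was 0.12, -0.17 and -0.24 in null high fat pools, against 0.39, 0.55 and 0.61 in wild type high fat pools, with no overlap. It fell by 0.61 ± 0.13 on the log2 scale (limma, adjusted p = 0.0301) and, averaged over the diets, by 0.35 ± 0.091 (adjusted p = 0.0468). On casein the Cmklr1 difference between null and wild type pools was -0.080 ± 0.13 (limma, adjusted p = 0.873). Gpr1, which encodes a second chemerin receptor, was -0.12, 0.0019 and -0.34 in null high fat pools, against 0.16, 0.19 and 1.01 in wild type high fat pools. The Gpr1 groups did not overlap, but most of the wild type mean came from 1 pool, and the difference of -0.61 ± 0.19 did not pass (limma, adjusted p = 0.086). Ccrl2, which binds chemerin without known signalling and presents it to other cells, was -0.037, 0.20 and 0.18 in null high fat pools, against -0.078, 0.11 and 0.24 in wild type high fat pools. Its difference was 0.022 ± 0.13 (limma, adjusted p = 0.941). The Cmklr1 call on the high fat diet ended without any 1 of 6 pools and held in 10 of 21 other settings, and the averaged call ended without any 1 of 9 pools and held in 5 of 21.

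**Figure D3:**
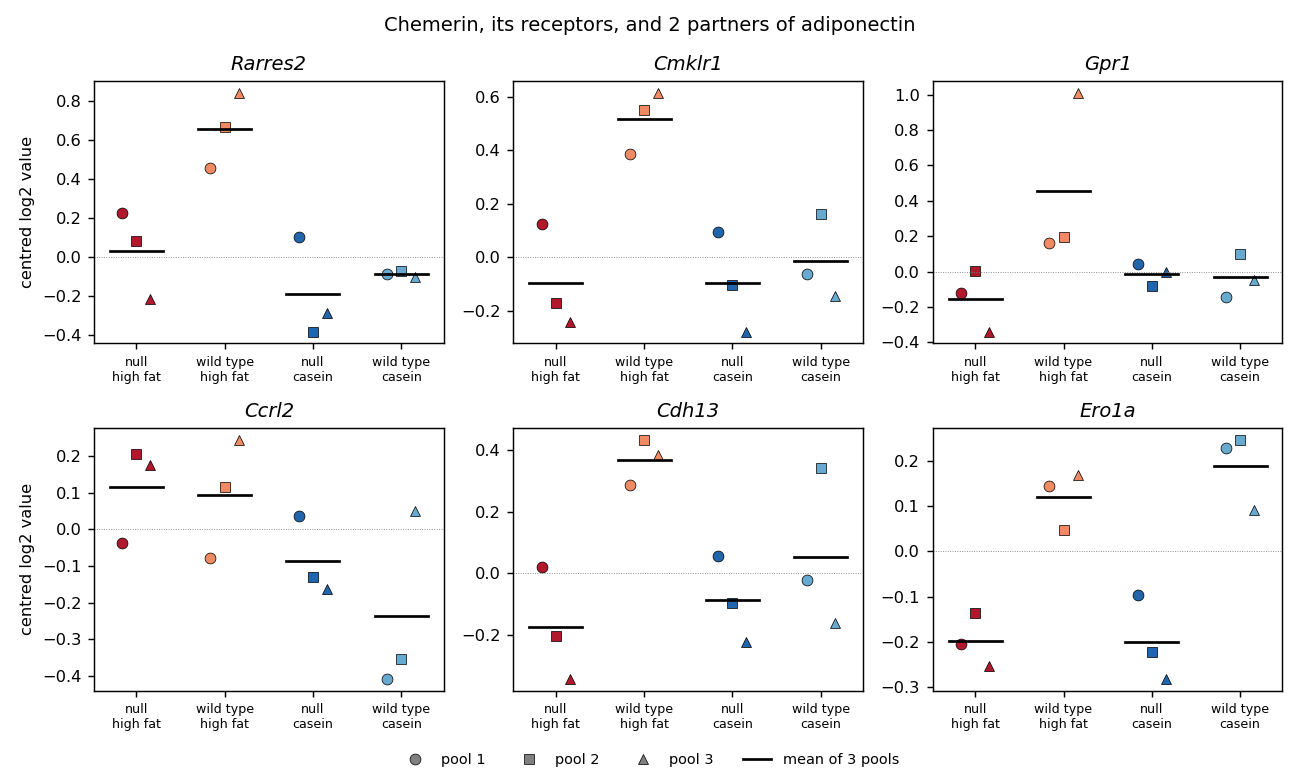
Centred log2 value (vertical axis) of Rarres2, its receptor genes Cmklr1, Gpr1 and Ccrl2, and Cdh13 and Ero1a, which belong to the adiponectin pathway, in the 12 pools with a bar for the mean of 3 pools. Rarres2, Cmklr1, Gpr1 and Cdh13 share the high position of the 3 wild type high fat pools over the null high fat pools. In Ero1a each of the 6 null pools is lower than each of the 6 wild type pools.

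Retnla was the member that spread most, over 2.03 on the log2 scale across the 12 pools, a span wider than in 95.8% of all genes. It was -0.0027, -0.037 and -0.86 in null high fat pools, against 0.55, 0.81 and 1.16 in wild type high fat pools. On casein it was 0.0003, -0.83 and -0.77 in null pools, against -0.0003, 0.71 and 0.12 in wild type pools. On the high fat diet the null pools lay below all wild type pools, and on casein the highest null pool and the lowest wild type pool were level. Averaged over both diets Retnla fell by 0.98 ± 0.21 in null pools (limma, adjusted p = 0.0287), to 50.8% of the wild type value. The difference on the high fat diet alone was -1.14 ± 0.30 (limma, adjusted p = 0.052), and that on casein was -0.81 ± 0.30 (adjusted p = 0.574). The averaged call ended without any 1 of 7 pools, with adjusted p-values over all 12 omissions from 0.0193 to 0.0777. Those pools were null high fat 2 and 3 (0.0565 and 0.061), wild type high fat 2 and 3 (0.0544 and 0.0647), null casein 2 and 3 (0.0777 and 0.071) and wild type casein 2 (0.0681). It also ended without the 3 pools richest in liver or muscle RNA (0.067).

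The gene for resistin itself differed less. Retn was -0.029, -0.12 and -0.34 in null high fat pools, against 0.30, -0.022 and 0.16 in wild type high fat pools. The groups did not overlap, but the highest null pool and the lowest wild type pool lay close together. The difference of -0.31 ± 0.11 did not pass (limma, adjusted p = 0.104). Over the 12 pools Retn correlated with the median of the mature adipocyte markers at r = 0.88. The part of these markers in the Retn difference was not tested. On casein Retn was 0.068, -0.032 and -0.013 in null pools, against 0.013, 0.23 and 0.030 in wild type pools, and the groups overlapped. Another gene of the family, Retnlb, best known as a product of gut goblet cells, was 0.16, -0.15 and -0.12 in null high fat pools and 0.062, -0.0060 and 0.15 in wild type high fat pools, with a difference of -0.10 ± 0.11 (limma, adjusted p = 0.594). Retnlg is not analysed here. Of the 3 measured genes of the family, 0 passed on the high fat diet, where 5.92% of all genes did. In the averaged comparison 1 of them, Retnla, passed, where 7.52% of all genes did.

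The start regions of Retnla and Retn are shown because these 2 relatives lie at different distances from the threshold, and that of Adipoq because it is the adipocyte-restricted member. They are RefSeq windows of GRCm38.p6 from 250 bases before to 50 bases after the annotated gene start, at chr16:48842359-48842658 (plus strand) for Retnla, chr8:3655520-3655819 (plus strand) for Retn and chr16:23146286-23146585 (plus strand) for Adipoq. Capitals mark matches, on either strand, to TTC and GAA with 4 free bases between them (the spacing known for STAT6, the factor of interleukin 4 signalling), TTNNGNAA (a core read by C/EBP factors), AGGNCA repeated after 1 free base (the direct repeat read by PPAR with RXR) or TATAAA (which binds the general initiation machinery). Where matches touch or overlap, the capitals run together.
Retnla: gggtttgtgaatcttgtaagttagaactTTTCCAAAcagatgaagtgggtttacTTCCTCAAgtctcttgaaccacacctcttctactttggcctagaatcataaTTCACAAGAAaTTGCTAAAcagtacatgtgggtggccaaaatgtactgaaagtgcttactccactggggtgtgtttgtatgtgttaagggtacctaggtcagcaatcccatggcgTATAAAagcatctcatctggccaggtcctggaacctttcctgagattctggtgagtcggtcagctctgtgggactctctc
Retn: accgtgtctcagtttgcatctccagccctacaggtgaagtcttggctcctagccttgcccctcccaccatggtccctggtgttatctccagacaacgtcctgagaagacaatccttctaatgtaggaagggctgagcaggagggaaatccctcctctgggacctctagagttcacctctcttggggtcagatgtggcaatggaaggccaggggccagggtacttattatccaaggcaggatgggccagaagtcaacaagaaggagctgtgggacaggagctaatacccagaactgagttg
Adipoq: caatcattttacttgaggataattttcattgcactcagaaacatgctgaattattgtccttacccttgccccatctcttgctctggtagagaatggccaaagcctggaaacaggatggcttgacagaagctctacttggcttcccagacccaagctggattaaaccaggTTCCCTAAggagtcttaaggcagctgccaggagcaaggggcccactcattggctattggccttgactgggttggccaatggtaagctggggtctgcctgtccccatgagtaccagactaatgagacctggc

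The Retnla window holds TTCACAAGAA at position -145 from the gene start, a C/EBP-type match 1 base further on at -134, other C/EBP-type matches at -222 and -196, and TATAAA at -30. Positions give the first base of a match. The Retn window holds none of the 4 motifs, and the Adipoq window holds 1 C/EBP-type match, at -81. Of 32851 mouse start regions of this length, 6.95% hold the STAT6-type letters, 40.68% the C/EBP-type letters, 0.38% the direct repeat and 13.62% TATAAA. Start regions were found for 7 of the 8 members, in 8 windows because Rbp4 has 2. The member without one in the reference used was Rarres2. The STAT6-type letters also occur in 1 Rbp4 window, and TATAAA in an Rbp4 window and in that of Agt. A match describes letters only.

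The gene for adiponectin did not pass in any of the 7 comparisons. Adipoq was 0.15, -0.034 and -0.61 in null high fat pools, against 0.017, 0.027 and 0.083 in wild type high fat pools. The null high fat pools spread widely around the narrow wild type group, and the difference was -0.20 ± 0.18 (95% interval -0.60 to 0.20; limma, adjusted p = 0.536). Without null high fat pool 3 it was 0.018. On casein Adipoq was 0.27, -0.060 and -0.21 in null pools, against -0.017, 0.087 and -0.20 in wild type pools, and the groups overlapped. Its receptor genes Adipor1 and Adipor2 differed by -0.12 ± 0.095 and -0.18 ± 0.14 on the high fat diet (limma, adjusted p = 0.471 and 0.47).

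The genes for a surface partner of adiponectin and for an enzyme of its secretion did pass. Cdh13, which encodes T-cadherin, was 0.020, -0.20 and -0.34 in null high fat pools, against 0.29, 0.43 and 0.38 in wild type high fat pools. It fell by 0.54 ± 0.14 in null pools (limma, adjusted p = 0.0461). Ero1a encodes the oxidase that helps form the disulfide bonds adiponectin needs to leave the endoplasmic reticulum. It was -0.20, -0.14 and -0.25 in null high fat pools, against 0.14, 0.047 and 0.17 in wild type high fat pools. On casein Ero1a was -0.097, -0.22 and -0.28 in null pools, against 0.23, 0.25 and 0.092 in wild type pools. Each of the 6 null pools was thus below each of the 6 wild type pools, as in 1.80% of all genes. Ero1a fell by 0.32 ± 0.075 on the high fat diet (limma, adjusted p = 0.0384) and by 0.35 ± 0.053 averaged over the diets (adjusted p = 0.011). The averaged call held without any 1 of the 12 pools, and in 19 of 21 other settings in all. Pdia4, a disulfide isomerase of the same compartment, rose by 0.26 ± 0.067 in the averaged comparison (limma, adjusted p = 0.0467), a call that ended without any 1 of 10 pools. The calls for Cdh13 and Ero1a on the high fat diet ended without any 1 of 7 pools each, and held in 7 and 6 of 21 other settings. In that comparison all 15 measured endothelial markers also had differences below 0, with a median of -0.47. Their part in the Cdh13 difference was not tested.

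The null minus wild type differences of Rbp4, the retinol carrier, were below 0 on both diets and did not pass. Rbp4 was 0.0031, -0.056 and -0.20 in null high fat pools, against 0.77, -0.015 and 0.22 in wild type high fat pools. On casein it was 0.0024, -0.19 and -0.41 in null pools, against -0.0024, 0.33 and 0.075 in wild type pools. The groups overlapped on both diets. The differences were -0.41 ± 0.18 on the high fat diet (limma, adjusted p = 0.199), -0.33 ± 0.18 on casein (0.648) and -0.37 ± 0.13 averaged (0.106). Without wild type high fat pool 1 the first was -0.19. Of its partners, the retinol uptake receptor gene Stra6 differed by 0.42 ± 0.14 on the high fat diet (limma, adjusted p = 0.102). Lrat, whose product traps retinol as esters, was 0.31, 1.26 and 0.93 in null high fat pools, against -0.56, -0.70 and -0.60 in wild type high fat pools. The Lrat groups did not overlap, with the null pools higher, as in 14.9% of all genes. The difference of 1.45 ± 0.45 did not pass (limma, adjusted p = 0.0762). On casein Lrat was -0.35, 0.40 and 0.18 in null pools, against 1.53, -0.43 and -0.20 in wild type pools, and the groups overlapped. The uterus and ovary marker medians given above were high in the same null high fat pools, and their part in the Lrat difference was not tested.

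Nampt did not pass in any comparison. It was 0.041, -0.20 and -0.48 in null high fat pools, against 0.13, 0.084 and -0.23 in wild type high fat pools. On casein it was 0.12, -0.050 and -0.29 in null pools, against -0.095, 0.42 and 0.55 in wild type pools. Groups overlapped on both diets, and the averaged difference was -0.29 ± 0.13 (limma, adjusted p = 0.21). Its 3 probe sets correlated over the pools at 0.83 to 0.94. Of 16 other genes of NAD salvage and NAD use, 0 passed on the high fat diet, with a median difference of -0.03, the same after rounding as over all genes. The nearest was Nnmt, which methylates the nicotinamide that NAMPT would recycle, at -0.89 ± 0.29 (limma, adjusted p = 0.092). Nnmt was 0.16, -0.34 and -0.87 in null high fat pools, against 0.35, 0.38 and 0.88 in wild type high fat pools.

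Apln and Agt were the 2 members with differences above 0 on the high fat diet, and neither passed. Apln was -0.016, 0.056 and 0.60 in null high fat pools, against 0.14, -0.24 and 0.071 in wild type high fat pools. The difference of 0.22 ± 0.21 (limma, adjusted p = 0.556) was 0.029 without null high fat pool 3. Agt was 0.53, 0.15 and -0.036 in null high fat pools, against -0.14, -0.022 and 0.11 in wild type high fat pools. Its difference of 0.23 ± 0.26 (limma, adjusted p = 0.645) was 0.072 without null high fat pool 1. On casein Agt spread from -0.45 to 0.76 among the null pools, against -0.098 to 0.065 in wild type pools. The apelin receptor gene Aplnr differed by -0.065 ± 0.19 on the high fat diet (limma, adjusted p = 0.88). Of the angiotensin receptor genes, Agtr1a differed by -0.60 ± 0.44 and Agtr2 by 0.39 ± 0.19 (limma, adjusted p = 0.446 and 0.225). Enpep, an aminopeptidase that cuts angiotensin II, had a diet difference of -0.72 ± 0.18 averaged over the genotypes, with an unadjusted p of 0.00246 and an adjusted p of 0.685 in limma.

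**Figure D4:**
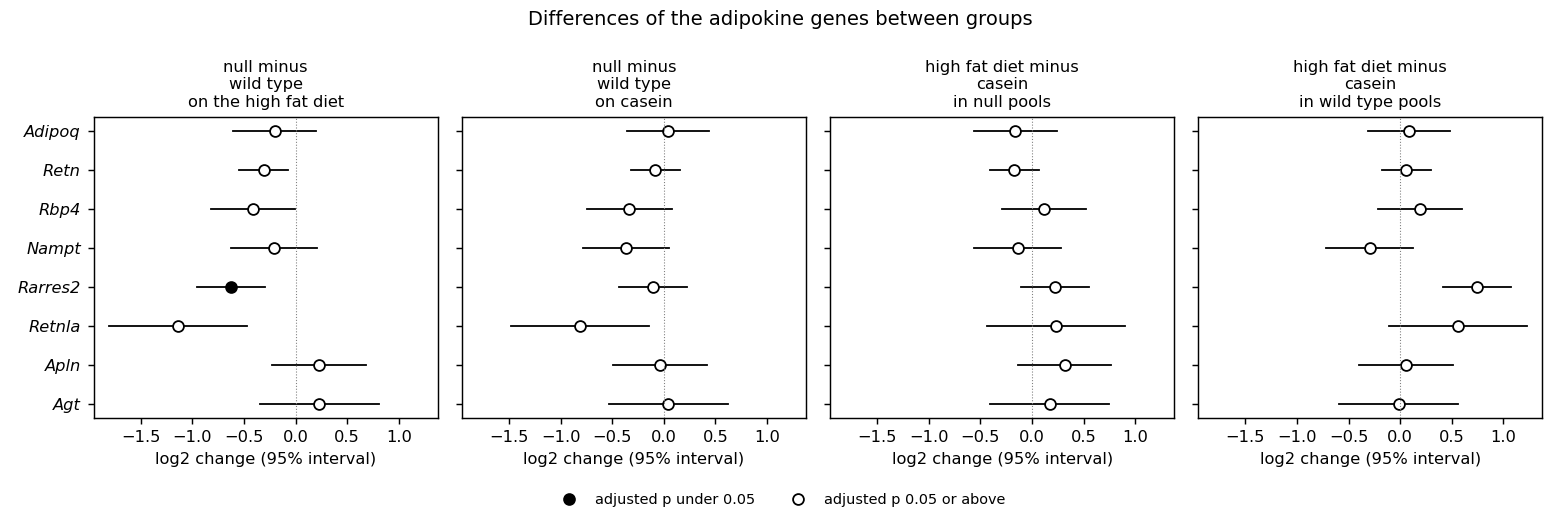
Log2 difference (horizontal axis) with its 95% interval for each of the 8 members in the 4 simple comparisons, filled where the adjusted p is under 0.05. Rarres2 on the high fat diet, at -0.62, is the single filled point, and the Rarres2 diet difference in wild type pools, at 0.74, stands furthest to the right of all points.

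The diet comparisons held no call among the members. In wild type pools the high fat diet minus casein differences of the 8 members ran over -0.30 (Nampt) to 0.74 (Rarres2), with a median of 0.071 against 0.001 over all genes. In null pools they ran over -0.17 (Retn) to 0.32 (Apln), with a median of 0.14 against -0.0002 over all genes. Rarres2 was the 1 member with an unadjusted p under 0.05 in wild type pools, where 7.61% of all genes had one, and 0 members had one in null pools, where 727 of the 18194 genes did. On casein, null minus wild type, 1 member (Retnla) had an unadjusted p under 0.05, against 8.12% of all genes. Averaged over the genotypes 0 members passed, and 0.00550% of all genes did. In the interaction 0 members and 0% of all genes passed, and Rarres2 was the 1 member with an unadjusted p under 0.05, against 6.12% of all genes.

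The genes around the members were counted list by list on the high fat diet. Of 19 measured receptor and binding partner genes, 0 rose and 2 fell (Cmklr1 and Cdh13) in null pools, with a median of -0.13. Of 17 genes for processing and supply, 0 rose and 1 fell (Ero1a), with a median of -0.05. Of 30 other secreted factors of fat, 0 rose and 2 fell, with a median of -0.21, and the median over all genes was -0.03. These counts stand beside the 2.71% of all genes that fell, and 5.92% that passed in either direction. The 2 secreted factors were C1qtnf9, which encodes the adiponectin relative CTRP9, and Lpl, which encodes lipoprotein lipase. C1qtnf9 was 0.15, -0.080 and -0.35 in null high fat pools, against 0.64, 0.61 and 0.86 in wild type high fat pools, and it fell by 0.80 ± 0.20 (limma, adjusted p = 0.0467). Lpl was -0.17, -0.39 and -0.66 in null high fat pools, against 0.19, 0.056 and 0.064 in wild type high fat pools, and it fell by 0.51 ± 0.13 (limma, adjusted p = 0.0478). Neither gene overlapped between the groups, and the calls ended without any 1 of 7 pools for C1qtnf9 and any 1 of 9 for Lpl. Of the 30 differences, 9 were above 0, and none of these passed. Lcn2 was 3.67, 3.05 and 3.22 in null high fat pools, against -0.75, -1.19 and -0.92 in wild type high fat pools. C1qtnf3 was 2.45, 0.62 and 1.84, against -0.022, -0.077 and -0.71. In both, every null pool lay above every wild type pool, as in 14.9% of all genes. Lcn2 also reached 6.22 in wild type casein pool 1. On casein and between the diets 0 genes of these lists passed in the 3 simple comparisons.

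The members ran together to different degrees over the 12 pools. Rarres2 and Retnla correlated at r = 0.84, Retn and Rbp4 at 0.77, and Retnla with Rbp4 and Retn at 0.70 and 0.68, while Apln correlated with Adipoq at -0.45. These 12 points share their groups and their tissue content, and the values describe them without a test. Among the 9097 genes with a span at or above the median, those most like Rarres2 were Lhfpl2 (r = 0.95), Pcolce2 (0.94), an enhancer of procollagen processing, and C1qtnf9 (0.93). Those most like Retnla were Nr1h3 (0.97), which encodes the oxysterol receptor LXR alpha, H2ac19 (0.97) and Camk1 (0.96). Nr1h3 was -0.061, -0.15 and -0.40 in null high fat pools, against 0.30, 0.34 and 0.57 in wild type high fat pools. The gene most like Adipoq was Baz2b (0.96), followed by Pde3b (0.94), the phosphodiesterase by which insulin restrains lipolysis, and Ptpn4 (0.94). Retn was most like Ipp (0.95), Apip (0.95) and Rflnb (0.94), and Rbp4 most like Ccdc125 (0.95), Bpnt1 (0.93) and Azin1 (0.91). Nampt was most like Chchd3 (0.93), Fh1 (0.91) and Ocstamp (0.91), Apln most like Fam207a (0.89), Heyl (0.87) and Tbc1d16 (0.81), and Agt most like C2 (0.92), Ccnl2 (0.91) and Poli (0.89).

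Cell type markers differed between the same pools as Rarres2 and Retnla. The median of the 17 mature adipocyte markers was -0.054, -0.31 and -0.51 in null high fat pools, against 0.18, 0.20 and 0.19 in wild type high fat pools, and 6 of the 17 fell, Lpl among them. The median of 20 macrophage markers was 0.011, 0.032 and -0.11 in null high fat pools, against -0.013, 0.33 and 0.54 in wild type high fat pools, and 0 of the 20 passed. Of the 20 differences 17 were below 0 and 3 above, with a median of -0.30 against -0.03 over all genes. The median of 15 endothelial markers was -0.0085, -0.10 and -0.26 in null high fat pools, against 0.24, 0.26 and 0.58 in wild type high fat pools, and 4 of the 15 fell. The median of 13 markers of eosinophils and alternatively activated macrophages, the cells known for Retnla, was -0.0077, -0.081 and -0.018 in null high fat pools, against 0.058, -0.0024 and 0.0705 in wild type high fat pools. Their median difference was -0.066, with 5 of the 13 above 0, where all genes had a median of -0.03. Of the 13, 2 fell: Mgl2, a macrophage lectin, by 0.94 ± 0.20 (limma, adjusted p = 0.0294) and Rnase2a, a ribonuclease gene, by 2.71 ± 0.38 (adjusted p = 0.0137). These counts stand beside the 2.71% of all genes that fell on the high fat diet, and 5.92% that passed in either direction. The markers of ovary, oviduct and uterus went the other way: of 20, 6 rose and 0 fell, where 3.21% of all genes rose. In pooled tissue, fewer cells of a type and less RNA per cell cannot be told apart.

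With the mature adipocyte median as a covariate the Rarres2 difference on the high fat diet was -0.32 (limma, adjusted p = 0.917), and the averaged Retnla difference was -0.37 (adjusted p = 0.741). With the macrophage median the Rarres2 difference was -0.38 (limma, adjusted p = 0.337), and the averaged Retnla difference was -0.74 (adjusted p = 0.0472). With the liver, muscle and ovary, oviduct and uterus medians together they were -0.33 for Rarres2 (limma, adjusted p = 0.968) and -0.16 for Retnla (0.998). All these settings gave smaller differences than the fit without covariates. Over the 12 pools Rarres2 correlated with the endothelial median at r = 0.85, with the macrophage median at 0.83 and with the mature adipocyte median at 0.48. Retnla correlated with the endothelial median at 0.88, with the mature adipocyte median at 0.77 and with the ovary, oviduct and uterus median at -0.87. Its r was 0.75 with the macrophage median and 0.55 with the median of eosinophil and alternatively activated macrophage markers. On the high fat diet the mature adipocyte median and the ovary, oviduct and uterus median each separated the genotypes. These fits therefore cannot tell tissue content from genotype. No gene of the whole series passed on the high fat diet with any of these covariates, so the lost call is not particular to Rarres2. The part of these tissue differences in the results was not tested.

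**Figure D5:**
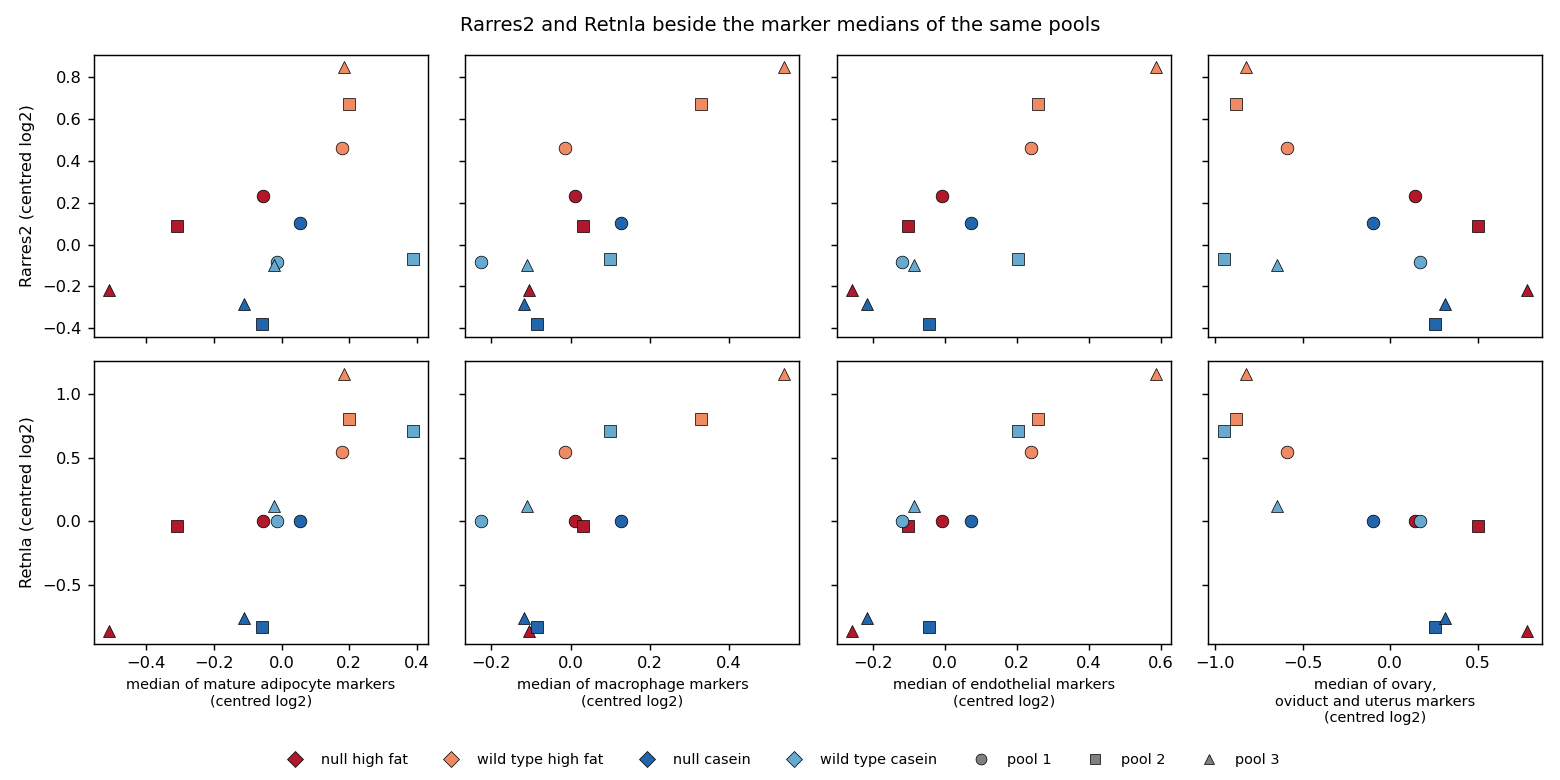
Centred log2 value of Rarres2 (top row) and Retnla (bottom row) against the median of the mature adipocyte, macrophage, endothelial and ovary, oviduct and uterus markers of the same pool, with colours for the 4 groups and symbols for the pool number. The wild type high fat pools lie high in both genes and in the endothelial median, and low in the ovary, oviduct and uterus median.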

How the data were processed

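Affymetrix arrays of total RNA from pooled fat pads were processed with GCOS and RMA, per the submitters' processing notes, with no version given in the sources used here. The deposited values were read as log2, the scale of RMA, although no base is stated. The authors had centred each probe set: the median over the 12 arrays is 0 for all 45101 probe sets within 1e-06. The extraction text names rats where all other labels give mice.

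The platform annotation gave 1 gene for 34958 probe sets, several for 932 and none for 9211. Symbols were updated by gene identifier through RefSeq (GRCm38.p6), which matched 34754. Start regions came from RefSeq of the same build. Probe sets of a gene were averaged, giving 18194 genes.

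The 4 group means were fitted with limma 3.58.1 in R 4.3.3 (8 residual and 2.5 prior degrees of freedom). From them came 7 two-sided comparisons: the genotypes within each diet, the diets within each genotype, both factors averaged, and the interaction. The fit was run on simulated data with known changes and independent noise in each gene. Those data held no tissue differences shared by the genes of a pool, so the run does not cover them. With 3 arrays a group, their number limits the precision, and no array carries a date or batch.

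Named were the 8 members, the 3 genes most correlated with each, and up to 6 genes of each pathway list per comparison, those that passed first. Marker genes and Ncf1 were named beside them. The members and lists were chosen with earlier results of these data known. Alternatives were the probe set rule, quantile normalization, array weights, a filter on narrow spans, a replicate block, tissue covariates and leaving out pools. The pool numbers were not taken as pairs: 3 of 18 same-numbered pairs of pools deviated from their group means with r above 0.1 (range -0.61 to 0.59).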

Additional observations from a re-analysis of the deposited data

How the results depend on the processing

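For the genotype comparison on the high fat diet, where 1 member passed (Rarres2), the count of members was 0 after quantile normalization, with the replicate block, with the tissue covariates, without the 3 pools rich in liver or muscle RNA, and with the mature adipocyte or the macrophage median as a covariate. It was 3 with array weights, 2 among genes with wide spans, and 0 to 2 when 1 pool was left out. Averaged over the diets, where 1 member passed (Retnla), the count was 2 with each probe set tested alone, with the probe set of widest span and with array weights. It was 0 with the tissue covariates, without the 3 pools and with the mature adipocyte covariate, and 0 to 2 when 1 pool was left out. With array weights 1 member passed between the diets in null pools (Rarres2, 0.39, limma adjusted p = 0.0394). With the replicate block Rarres2 on the high fat diet had an adjusted p of 0.0639 (limma), and the averaged Retnla call held at 0.0484. The Retnla difference on the high fat diet passed without wild type casein pool 1 or 2, null casein pool 1 or null high fat pool 1 (limma, adjusted p = 0.0494, 0.0445, 0.0399 and 0.0448).

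Counts over all genes moved as well. On the high fat diet 1077 genes passed between the genotypes, against 655 after quantile normalization, 5120 with array weights, 542 with the replicate block, 440 without the 3 pools, and 0 with the tissue, mature adipocyte or macrophage covariates. Leaving out 1 pool gave 0 to 1617: 0 without null high fat pool 2 or 3, 1617 without null high fat pool 1, 170, 210 and 32 without wild type high fat pools 1, 2 and 3, and 456 without null casein pool 2. Averaged over the diets 1368 passed, against 4009, 829 and 548 with array weights, the block and without the 3 pools. It was 2, 0 and 228 with the tissue, mature adipocyte and macrophage covariates, and 157 to 2339 with 1 pool left out. The comparisons with 0 genes reached 1 (quantile normalization) and 2 (tissue covariates) on casein, 942 between the diets in null pools (array weights), 1 between the diets in wild type pools (without the 3 pools) and 1 in the interaction (mature adipocyte covariate). With 1 pool left out they reached 46, 1, 15 and 10. The count of 1 for the averaged diet comparison was 0 to 9.

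Over the members and named genes, 2665 of 3094 values kept direction and side of the threshold, 272 no longer passed, 27 newly passed and 130 values without a call moved. Most of these values had no call in the main fit, so the 2665 do not measure how well the calls held. The Rarres2 call on the high fat diet held in 9 of 22 other settings, and the averaged Retnla call in 11 of 21. No called value turned its direction. The macrophage and mature adipocyte covariates and the value of Rarres2 from its 2 concordant probe sets (-0.89 on the high fat diet, limma adjusted p = 0.0315) were chosen after seeing the data. Centring hides signal over background, so dim probe sets could not be told from bright ones.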
